A study of Homo sapiens with 95 samples.

Results

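Overexpression of NRF2 was compared with the HcRed control in AALE cells, immortalized human bronchial epithelial cells, that were treated with 1 of 3 tobacco-related carcinogens. The comparison took every NRF2 and HcRed sample that the labels assign to CSC, BaP or NNK, which made 18 of the 95 samples of the series, 9 of each genotype and 3 of each genotype with each chemical. CSC is cigarette smoke condensate and was given at 24 µg/ml, BaP is benzo(a)pyrene, a polycyclic aromatic hydrocarbon of smoke, at 173 µM, and NNK is a nitrosamine specific to tobacco, at 490 µM. HcRed samples carried an empty vector with the HcRed reporter, and all 18 samples share the immortalized AALE background and growth in 24-well plates. The study calls its replicates biological. The number of independent transductions behind the NRF2 line is not given in the sources used here, so the p-values measure the spread between the samples of a line and not between transductions. The 6 NRF2 and HcRed samples with the solvent DMSO, and the FGFR1, NRG1 and PIK3CA overexpression lines with the same chemicals, are given beside them only where they show a difference. The question was which differences between NRF2 and HcRed cells held with each of the 3 chemicals and which belonged to a single chemical.

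NRF2, encoded by NFE2L2, is a transcription factor of the cap'n'collar family. In unstressed cells KEAP1 hands NRF2 to a CUL3 ubiquitin ligase for degradation, and electrophiles or oxidants that modify KEAP1 let NRF2 build up and pair with small MAF proteins at antioxidant response elements. Its classical targets make glutathione, reduce thioredoxin and quinones, conjugate and export xenobiotics, supply NADPH and handle heme and iron, and in bronchial epithelium the pathway is known for its response to smoke. BaP and compounds of smoke condensate are also ligands of the aryl hydrocarbon receptor (AhR), which induces the P450 enzymes CYP1A1 and CYP1B1.

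The short element that NRF2 and small MAF proteins bind was searched as TGACNNNGC, on either strand (GCNNNGTCA in reverse), in the RefSeq promoters of GRCh38.p14, which run from 250 bases before to 50 bases after each gene start. These 6 windows of NRF2-linked genes are shown because they place the searched letters beside the genes described below, with the element in capitals and each sequence read 5′ to 3′ along the gene's own strand.
TXNRD1: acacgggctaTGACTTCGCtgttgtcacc
CYP4F11: ctgtgcccatGCTGTGTCAccctgagctg
GSTP1: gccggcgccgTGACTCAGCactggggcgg
GCLM: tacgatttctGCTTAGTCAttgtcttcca
ME1: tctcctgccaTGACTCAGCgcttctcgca
SLC3A2: cgagggtgggTGACTCAGCgtcctccttc
They lie at chr12:104215670-104215698 on the plus strand for TXNRD1, chr19:15935005-15935033 on the minus strand for CYP4F11, chr11:67583736-67583764 on the plus strand for GSTP1, chr1:93909446-93909474 on the minus strand for GCLM, chr6:83431170-83431198 on the minus strand for ME1 and chr11:62881652-62881680 on the plus strand for SLC3A2. The element was present in 13.6% of all 27305 promoters and in 15.2% of the 10583 promoters matched by symbol to a tested gene. Of the 67 NRF2-linked genes with a promoter it was present in 17, or 25.4%. It was in 2 of the 11 NRF2-linked genes with a promoter that were higher in NRF2 cells (18.2%), namely TXNRD1 and CYP4F11, in 3 of the 6 that were lower (50%) and in 24% of the 50 that were not called. A match is a description of the letters in these windows and not a site of binding.

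The libraries held between 432015 and 1494564 counted reads, a range of 3.46 times, so that 3 counts stand for 2.01 to 6.94 CPM (counts scaled to the same library total). The shallowest were the HcRed samples numbered 3 with NNK and with BaP. Of 27978 listed genes, 14226 had a mean count above 1 over the 18 samples and were tested. None of the 24 pairs of samples of a group agreed within sampling noise, so none was taken for a library deposited more than once. The markers of bronchial basal epithelium (8 of 8 tested) summed to between 7050 and 12100 CPM in NRF2 and 7230 and 9780 CPM in HcRed samples. Of these 8 genes 2 were higher (7.32% of all genes) and 4 lower (8.27% of all genes) in NRF2 cells. Ciliated markers summed to at most 5.91 and 6.94 CPM with TEKT1 at 0, secretory markers to at most 6.93 and 2.68 CPM with SCGB1A1, MUC5AC and BPIFB1 at 0, fibroblast markers to at most 40.2 and 37.1 CPM with COL1A2 and LUM at 0, leukocyte markers to at most 8.47 and 4.63 CPM with PTPRC and CD3E at 0, and endothelial markers to at most 4.02 and 2.82 CPM with CDH5 at 0, each in NRF2 and HcRed samples in that order. In bulk samples fewer cells of a type and less RNA per cell cannot be told apart.

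NFE2L2 itself was higher in NRF2 cells with each chemical. It lies on the minus strand of hg19 at chr2:178083395-178257484, and its reads sum the introduced and the cell's own transcripts. It had 805 to 1756 counts in the 9 NRF2 samples and 84 to 355 in the 9 HcRed samples. On the log2 CPM scale after TMM normalization, used for every level below, the lowest, median and highest NRF2 samples were at 10.35, 10.42 and 10.47, and the HcRed samples at 7.60, 7.71 and 7.95, with no overlap. With the chemical as a covariate the log2 fold change was 2.67 (SE 0.05, adjusted p = 8.04e-57, limma-voom with Benjamini-Hochberg adjustment over the tested genes, as for every adjusted p below unless another tool is named). As a contrast within each chemical it was 2.76 (SE 0.07) with CSC, 2.54 (SE 0.07) with BaP and 2.74 (SE 0.09) with NNK. KEAP1, the inhibitor that retains NRF2, did not pass the test at 0.16 (SE 0.10, adjusted p = 0.295), with levels of 6.05, 6.53 and 6.95 in NRF2 and 6.16, 6.40 and 6.83 in HcRed samples. Of the 10 members of the pathway core, 3 were higher (7.32% of all genes), the introduced NFE2L2 among them, and 2 lower (8.27% of all genes). SQSTM1, the autophagy receptor that binds KEAP1, rose by 0.42 (SE 0.06, adjusted p = 2.58e-08) and the related factor NFE2L1 by 0.21 (adjusted p = 0.0044), while BACH1, a repressor that competes for the same elements, fell by 0.29 (adjusted p = 0.0117) and the small MAF partner MAFG fell by 0.30 (adjusted p = 0.0381). The other introduced genes had fewer counts than in their own lines, and on the log2 CPM scale no sample came within 1 of the lowest sample of that line. NRG1 had 2 to 122 counts in the 18 samples against 2536 to 9146 in its line, FGFR1 22 to 91 against 324 to 2624, and PIK3CA 35 to 150 against 239 to 868.

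**Figure D1:**
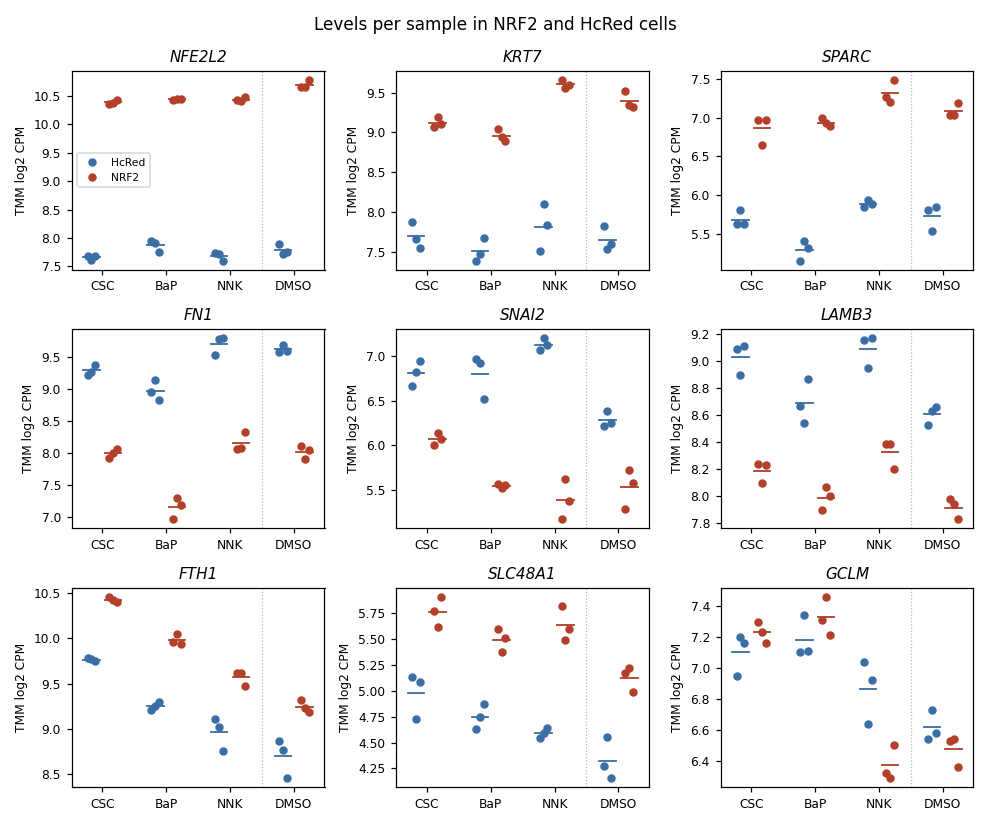
Levels of 9 genes (log2 CPM after TMM normalization, vertical axis) in each NRF2 and HcRed sample with CSC, BaP, NNK and DMSO (horizontal axis). Points are samples, 3 per genotype and treatment, and short lines are their means. NFE2L2, KRT7 and SPARC are higher in NRF2 cells with each treatment, FN1 and LAMB3 are lower, and GCLM overlaps over the 9 samples of each genotype, though not with NNK.

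Of the 14226 genes tested, 2219 (15.6%) differed between NRF2 and HcRed cells over the 3 chemicals, 1042 higher (7.32%) and 1177 lower (8.27%). The median log2 fold change over all tested genes was 0.00. The genes tied to NRF2 were taken as 8 lists of 95 genes, of which 86 were tested. Of these 14 were higher (16.3%, beside 7.32% of all genes), 7 were lower (8.14%, beside 8.27%) and 65 were not called, with a median of 0.03. The genes that rose were FTH1, FTL, SLC48A1, TFRC, HMOX1, TXN, TXNRD1, PRDX2, GSS, NQO1, TKT, TALDO1, UCHL1 and CYP4F11. Those that fell were ALDH3A1, GSTM1, GSTP1, TXNIP, IDH1, ABCB6 and TSKU. Within a single chemical 7 rose and 3 fell with CSC (2.06% and 2.45% of all genes), 7 and 3 with BaP (3.55% and 4.42%), and 8 and 2 with NNK (1.51% and 1.83%), while 11 rose and 3 fell with DMSO (3.32% and 3.59%).

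The heme and iron genes held 5 of these 14 rises, with 1 fall among 11 tested and a median log2 fold change of 0.31. Of all genes 7.32% rose and 8.27% fell. FTL and FTH1 encode the light and heavy chains of ferritin, which stores iron. FTL had levels of 8.87, 9.90 and 10.14 in NRF2 and 8.11, 8.89 and 9.56 in HcRed samples, overlapping over the 9 samples of each. It rose by 0.74 (SE 0.05, adjusted p = 1.56e-20), with 0.57 for CSC, 0.99 for BaP, 0.59 for NNK and 0.98 for DMSO. FTH1 had levels of 9.47, 9.96 and 10.46 against 8.76, 9.25 and 9.78 and rose by 0.68 (SE 0.04, adjusted p = 1.22e-25), with 0.68, 0.73 and 0.57 for CSC, BaP and NNK. Both ferritin genes have many near-identical processed pseudogenes, and since the treatment of reads that align to several places is not given in the sources used here, their counts are uncertain.

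SLC48A1, a heme transporter, was at 5.38, 5.60 and 5.91 in NRF2 and 4.54, 4.73 and 5.13 in HcRed samples. The groups did not overlap, and the gene rose by 0.90 (SE 0.13, adjusted p = 9.85e-08), with 0.87, 0.82 and 1.07 for CSC, BaP and NNK. TFRC, the transferrin receptor that takes up iron, was at 8.07, 8.15 and 8.65 against 7.21, 7.53 and 8.13 and rose by 0.58 (SE 0.06, adjusted p = 1.48e-12). FTL, FTH1, SLC48A1 and TFRC were the only NRF2-linked genes that passed the test in the same direction with each of the 3 chemicals. HMOX1, the heme oxygenase that degrades heme, rose by 1.31 (SE 0.30, adjusted p = 0.000895) but had only 2 to 19 counts in NRF2 and 0 to 9 in HcRed samples. The fall of this list was that of ABCB6, a transporter of porphyrins, at -0.82 (adjusted p = 0.00481).

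Among the 11 genes of glutathione synthesis and use only GSS, the glutathione synthetase, rose (7.32% of all genes), by 0.34 (SE 0.07, adjusted p = 7.96e-05), and the median was 0.03. GSS lies at chr20:33516235-33543830 of hg19, within 5 Mb in which 51 of 53 genes were higher with a median of 0.36. The subunits of the rate-limiting ligase and the cystine transporter did not pass the test. GCLM was at 6.29, 7.21 and 7.46 in NRF2 and 6.64, 7.10 and 7.34 in HcRed samples with a log2 fold change of 0.00 (adjusted p = 0.989). With NNK its 3 NRF2 samples lay below the HcRed samples, at 6.32, 6.29 and 6.50 against 7.04, 6.64 and 6.92, and the log2 fold change of -0.49 (SE 0.17) did not pass the test (adjusted p = 0.0851). GCLC was at -0.03 (adjusted p = 0.778) and SLC7A11 at 0.02 (adjusted p = 0.919). Of the 12 thioredoxin and peroxiredoxin genes 3 rose and 1 fell (7.32% and 8.27% of all genes). TXNRD1, the thioredoxin reductase, was at 8.55, 9.35 and 9.45 against 8.38, 9.12 and 9.30 and rose by 0.17 (SE 0.04, adjusted p = 0.0026), its substrate TXN rose by 0.32 (SE 0.08, adjusted p = 0.00182), and PRDX2, a peroxidase, rose by 0.46 (SE 0.10, adjusted p = 0.000325). TXNIP, the inhibitor of thioredoxin, fell by 0.45 (adjusted p = 4.90e-06), and SRXN1, which repairs oxidized peroxiredoxins, was at -0.10 (adjusted p = 0.42).

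Of the 13 quinone, carbonyl and aldehyde reductases, 1 rose and 1 fell (7.32% and 8.27% of all genes). NQO1, the quinone reductase often used to read NRF2 activity, was at 7.66, 8.34 and 8.61 in NRF2 and 7.22, 8.22 and 8.51 in HcRed samples and rose by 0.20 (SE 0.06, adjusted p = 0.0109), with 0.51 (adjusted p = 0.00166) for DMSO. Without HcRed BaP replicate 1 its log2 fold change over the 3 chemicals was 0.16 and no longer past the threshold (adjusted p = 0.0608). ALDH3A1, an aldehyde dehydrogenase that is also an AhR target, was at 3.86, 4.65 and 5.67 against 4.99, 5.69 and 6.46 and fell by 0.94 (SE 0.15, adjusted p = 2.36e-06). AKR1B10 was at 0.38 (adjusted p = 0.505) and AKR1C1 at -0.55 (adjusted p = 0.214). Both aldo-keto reductases belong to a family of similar sequences, so that their counts are uncertain.

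In the 3 lists that follow, the counts stand beside 7.32% higher and 8.27% lower of all genes. None of the 14 glutathione transferases and conjugating enzymes rose and 2 fell. GSTP1 fell by 0.30 (SE 0.06, adjusted p = 5.71e-05), from levels of 8.71, 8.91 and 9.21 in HcRed to 8.39, 8.53 and 8.83 in NRF2 samples. GSTM1, a member of a family of similar genes, fell by 1.59 (SE 0.31, adjusted p = 6.38e-05), with only 1 to 10 counts in NRF2 and 4 to 23 in HcRed samples. Of 7 NADPH-producing enzymes 2 rose and 1 fell. TKT rose by 0.28 (adjusted p = 4.38e-07) and TALDO1 by 0.31 (adjusted p = 0.00153), both of the pentose phosphate pathway. IDH1 fell by 0.23 (adjusted p = 0.00728), while ME1 (0.21, adjusted p = 0.116), the malic enzyme, did not pass the test. None of the 6 efflux transporters tested by limma-voom passed in either direction. Among the 12 other genes tied to NRF2, UCHL1 rose by 1.25 (adjusted p = 0.000825) and CYP4F11 by 0.95 (adjusted p = 0.0199), and TSKU fell by 0.50 (adjusted p = 0.00132). UCHL1 had only 3 to 15 counts in NRF2 and 0 to 9 in HcRed samples, and CYP4F11 only 2 to 10 and 0 to 8. The call of CYP4F11 was lost with DESeq2 and in 2 fits that left out a sample. SLC3A2, the partner of SLC7A11 and of SLC7A5, was at 0.03 (adjusted p = 0.676).

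**Figure D2:**
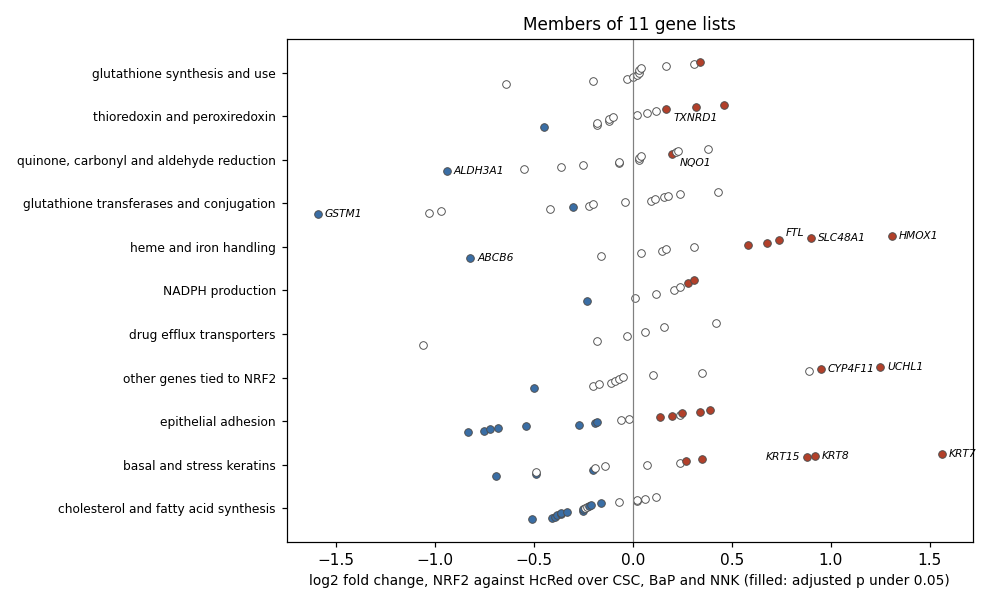
Log2 fold change of NRF2 against HcRed over the 3 chemicals (horizontal axis) for the tested members of 11 gene lists (rows). Each point is a gene, filled where the adjusted p was under 0.05. Points of the heme and iron list lie mostly above 0, those of cholesterol and fatty acid synthesis mostly below 0, and most other NRF2-linked points are open and near 0.

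Within a single chemical 642 genes differed with CSC (4.51%), 1134 with BaP (7.97%) and 475 with NNK (3.34%). With each of the 3 chemicals and in the same direction, 192 genes passed the test (1.35%), 73 higher (0.513%) and 119 lower (0.836%). Their log2 fold changes over the 3 chemicals ranged from 0.17 to 2.67 in absolute value, with a median of 0.75, 190 of the 192 reached a mean count of 10, and for 183 the 3 NRF2 and 3 HcRed samples did not overlap within any chemical. Tests on the same samples chose these genes, so the missing overlap describes them and is no separate support. Over all tested genes the 9 NRF2 and 9 HcRed samples did not overlap for 103 genes that were higher (0.724%) and 110 that were lower (0.773%).

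After NFE2L2 the largest rise common to the 3 chemicals was that of AMOT (chrX:112017731-112084059 of hg19), a scaffold that binds YAP. It was at 3.21, 4.77 and 5.86 in NRF2 and 1.62, 2.25 and 3.58 in HcRed samples, with a log2 fold change of 2.66 (SE 0.28, adjusted p = 5.59e-12) and 2.35, 3.16 and 2.43 for CSC, BaP and NNK. The samples overlapped over all 9 of each genotype but not within a chemical. DAPK1, a calmodulin-regulated death-associated kinase, was at 3.64, 4.76 and 5.02 against 2.07, 2.65 and 3.25, without overlap, and rose by 2.25 (SE 0.27, adjusted p = 4.46e-10). IGF2BP1, an RNA-binding protein of fetal tissues, was at 4.32, 4.76 and 5.39 against 1.79, 2.81 and 3.65, without overlap, and rose by 2.24 (SE 0.24, adjusted p = 1.15e-11). The ligand WNT10A rose by 1.62 (SE 0.23, adjusted p = 8.18e-08) with groups that overlapped over the 9 samples, the carboxypeptidase CPVL rose by 1.62 (SE 0.15, adjusted p = 5.78e-14) and the uncharacterized LOC100507412 by 1.68 (SE 0.22, adjusted p = 4.12e-09).

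Among the 12 leading rises, most reads after NFE2L2 were counted for KRT7, SPARC and IGFBP2. KRT7 (chr12:52626304-52645970), a keratin of simple epithelia, was at 8.89, 9.11 and 9.66 in NRF2 and 7.39, 7.66 and 8.10 in HcRed samples. The groups did not overlap, and the log2 fold change was 1.56 (SE 0.06, adjusted p = 1.31e-34), with 1.45, 1.48 and 1.79 for CSC, BaP and NNK and 1.75 for DMSO. SPARC (chr5:151040657-151066536), a collagen-binding matrix protein, was at 6.65, 6.97 and 7.49 against 5.15, 5.62 and 5.93 and rose by 1.45 (SE 0.10, adjusted p = 1.13e-20). IGFBP2, which binds insulin-like growth factors, was at 6.90, 7.16 and 7.72 against 5.69, 6.07 and 6.58 and rose by 1.18 (SE 0.09, adjusted p = 1.96e-17). The homeobox factor IRX2 was at 6.43, 6.80 and 7.01 against 4.97, 5.33 and 5.80 and rose by 1.41 (SE 0.11, adjusted p = 8.48e-18). KRT7 and SPARC were not low in every other line with the same chemicals: the medians of KRT7 were 9.04 in FGFR1, 7.05 in NRG1 and 10.02 in PIK3CA samples, and those of SPARC were 7.11, 5.05 and 7.74.

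FN1 (chr2:216225163-216300796), the matrix protein fibronectin, had the most reads among the 12 leading falls. It was between 6.97 and 8.34 in NRF2 and between 8.83 and 9.80 in HcRed samples, without overlap, and fell by 1.55 (SE 0.06, adjusted p = 1.74e-32), with -1.28, -1.90 and -1.54 for CSC, BaP and NNK. In the FGFR1, NRG1 and PIK3CA lines its medians were 10.01, 10.47 and 10.64, all above the highest HcRed sample. VCAN, the matrix proteoglycan versican, was at 3.38, 3.80 and 4.69 against 5.56, 5.73 and 6.04 and fell by 1.99 (SE 0.17, adjusted p = 3.97e-15). NT5E, the ectonucleotidase CD73, was at 4.72, 5.26 and 6.20 against 6.35, 6.98 and 7.49 and fell by 1.59 (SE 0.12, adjusted p = 6.31e-19).

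SEMA3A, a secreted semaphorin, and its receptor NRP1 both fell. SEMA3A was at 2.96, 3.31 and 4.11 in NRF2 and 4.23, 4.96 and 5.47 in HcRed samples (log2 fold change -1.83, SE 0.21, adjusted p = 1.78e-10), and NRP1 was at 3.62, 4.46 and 5.08 against 5.52, 5.77 and 6.22 (-1.49, SE 0.15, adjusted p = 1.46e-12). GPX3, a secreted glutathione peroxidase, was at 3.11, 3.55 and 4.14 against 4.88, 5.39 and 5.91 and fell by 2.10 (SE 0.19, adjusted p = 2.59e-14). TFPI2, a serine protease inhibitor of the matrix, fell by 1.76 (SE 0.23, adjusted p = 1.25e-08), TGM2, the tissue transglutaminase that crosslinks matrix proteins, by 1.46 (SE 0.22, adjusted p = 1.99e-07), and the complement component C3 by 1.48 (SE 0.22, adjusted p = 1.89e-07). The largest falls, of the amino acid transporter SLC38A5 at -2.39 (SE 0.29, adjusted p = 7.98e-10) and of C3orf14 at -2.24 (SE 0.28, adjusted p = 1.44e-09), rest on few reads, with 1 to 4 counts of SLC38A5 in NRF2 and 8 to 38 in HcRed samples. KIAA1324L fell by 1.88 (SE 0.21, adjusted p = 8.12e-11). For these 12 falls the 9 NRF2 and 9 HcRed samples did not overlap.

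**Figure D3:**
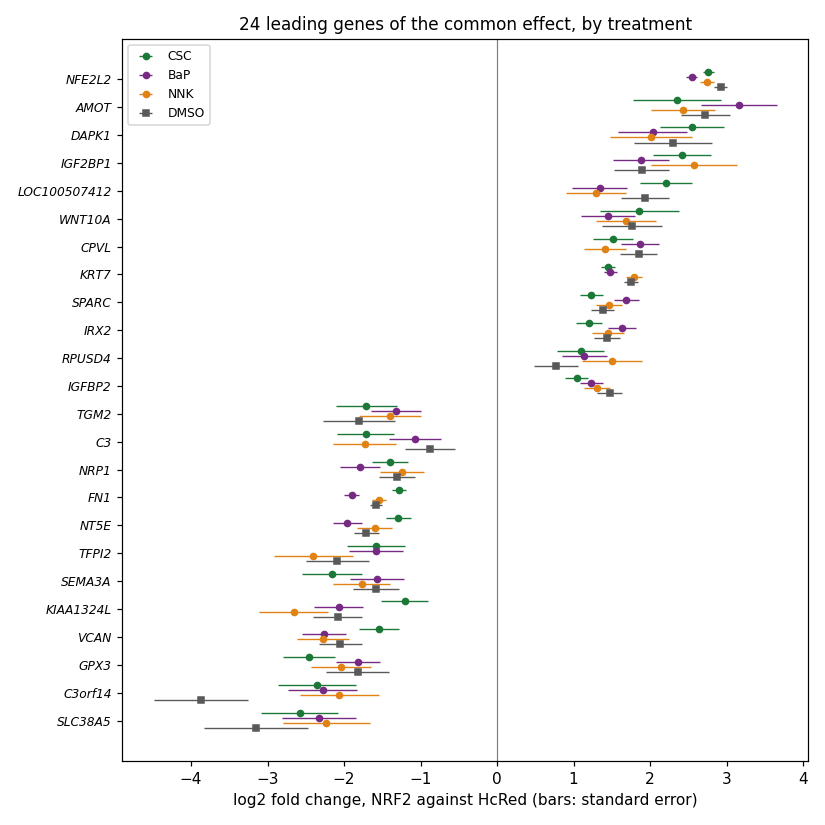
Log2 fold change of NRF2 against HcRed (horizontal axis, with its standard error) for the 12 leading rises and 12 leading falls common to the 3 chemicals (rows), fitted separately for CSC, BaP, NNK and DMSO (colours). All points of a gene lie on the same side of 0, from NFE2L2 at 2.67 over the 3 chemicals to SLC38A5 at -2.39.

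Epithelial adhesion genes held 5 of the 119 falls common to the 3 chemicals. Of 16 tested, 8 fell (8.27% of all genes) and 5 rose (7.32% of all genes) over the 3 chemicals, with a median of -0.12, and the 5 common falls stand beside 0.836% of all genes. LAMB3 and LAMA3 encode laminin chains of the basement membrane, to which basal cells are anchored. LAMB3 was at 7.90, 8.20 and 8.39 in NRF2 and 8.54, 8.95 and 9.17 in HcRed samples, without overlap, and fell by 0.75 (SE 0.05, adjusted p = 3.61e-19). LAMA3 had medians of 8.83 and 9.50, with samples that overlapped slightly, and fell by 0.72 (SE 0.05, adjusted p = 5.00e-20).

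Integrin subunits that bind laminins fell as well, ITGA3 by 0.68 (SE 0.04, adjusted p = 3.10e-21), ITGA6 by 0.54 (SE 0.05, adjusted p = 1.69e-15) and ITGB4 by 0.18. The falls also held the cadherins CDH1 (-0.19) and CDH3 (-0.27). The 5 rises were smaller, namely the desmosomal DSG3 (0.39), DSC3 (0.34), PKP1 (0.20) and DSP (0.14), and the surface protein EPCAM (0.25). Of the 10 mesenchymal genes tested 3 fell and 2 rose, beside the same shares of all genes, and the median was -0.68, with FN1 and SPARC, described above, in opposite directions. SNAI2, the repressor Slug, was at 5.17, 5.57 and 6.14 in NRF2 and 6.52, 6.95 and 7.20 in HcRed samples and fell by 1.25 (SE 0.11, adjusted p = 3.39e-15), with -0.73, -1.37 and -1.78 for CSC, BaP and NNK. The intermediate filament gene VIM fell by 1.07 (adjusted p = 6.48e-07) and the factor TWIST1 rose by 0.56 (adjusted p = 0.0318).

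Keratins moved in both directions, with 5 of 13 higher and 3 lower, beside 7.32% and 8.27% of all genes. KRT8, the partner of KRT18 in simple epithelia, was at 7.49, 7.60 and 7.88 in NRF2 and 6.56, 6.65 and 7.14 in HcRed samples and rose by 0.92 (SE 0.07, adjusted p = 3.53e-18), and KRT18 rose by 0.35. KRT15 and KRT17, of basal cells, rose by 0.88 and 0.27. KRT19 was at 8.47, 8.98 and 9.41 against 9.34, 9.62 and 10.16, overlapping slightly, and fell by 0.69 (SE 0.05, adjusted p = 1.32e-18), the basal keratin KRT14 fell by 0.20 (adjusted p = 0.0301), and KRT6A, whose reads cannot be told with certainty from those of KRT6B and KRT6C, fell by 0.49 (SE 0.03, adjusted p = 3.14e-22). Of 11 genes of the squamous cornified envelope TGM1 (0.79) and KRT13 (1.42) rose and SPRR1B (-1.06) fell. KRT13 had only 0 to 6 counts in NRF2 and 0 to 5 in HcRed samples. Its call was lost with edgeR, with DESeq2 and in 7 fits that left out a sample.

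Genes of cholesterol and fatty acid synthesis were lower in NRF2 cells, 12 of 19 (8.27% of all genes were lower) with none higher by limma-voom and a median of -0.24. Of this list 2 genes fell with each chemical (0.836% of all genes). FASN, the fatty acid synthase, fell by 0.41 (adjusted p = 2.86e-10), HMGCS1 by 0.36, LSS by 0.39 and DHCR7 by 0.38, and among the others that fell were IDI1, FDFT1, CYP51A1, INSIG1, ACACA and ACLY. With a single chemical 6 fell and 1 rose with CSC (2.45% and 2.06% of all genes), 4 fell with BaP (4.42%) and 8 fell with NNK (1.83%). With DMSO 3 fell and 2 rose (3.59% and 3.32%).

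In the remaining lists the counts stand beside 7.32% higher and 8.27% lower of all genes. Of 21 cell cycle genes 4 rose and 5 fell with a median of 0.01. CCND1, cyclin D1, was at 5.67, 6.16 and 6.91 in NRF2 and 7.15, 7.53 and 7.84 in HcRed samples and fell by 1.31 (SE 0.09, adjusted p = 7.27e-20), and PCNA fell by 0.31, whereas the mitotic TPX2, which lies in the same 5 Mb as GSS, and AURKA rose by 0.40 and 0.35. PCNA and AURKA also lie on chromosome 20. Among genes with enough counts for the windows described below, those after PCNA from CDS2 (-0.486) to FERMT1 (-0.308) were all called lower. TMEM230 (0.098), just before PCNA, and TMX4 (-0.064), just after FERMT1, were not called. Those after AURKA from CSTF1 (0.225) to RBM38 (0.467) were all called higher, and the next gene, PMEPA1 (-0.657), was called lower. FAM210B (0.18), just before AURKA, was not called. What the position has to do with these changes was not tested. Of 25 proteasome subunits, some of which are known NRF2 targets, none rose by limma-voom and 2 fell, PSMA7 by 0.99 (SE 0.07, adjusted p = 4.25e-18) and PSMD14 by 0.38. Of 20 p53 targets FDXR rose by 0.61 and 3 fell, FAS by 0.78, TP53I3 by 0.56 and the inhibitor of cyclin-dependent kinases CDKN1A by 0.31. Of 18 genes of the ATF4 amino acid response SLC7A5 rose by 0.17 and 5 fell, among them the serine synthesis gene PSAT1 by 0.64, from 7.03, 7.40 and 7.58 in HcRed to 6.30, 6.84 and 7.05 in NRF2 samples. All 8 tested interleukin 1 and chemokine genes had a negative log2 fold change with a median of -0.46, but only IL1A (-0.44) and CCL20 (-2.09) passed the test. CCL20 had only 0 to 4 counts in NRF2 and 2 to 9 in HcRed samples. Of 15 interferon-stimulated genes IFIT1 and IFI44 fell and the median was -0.16. IFIT1 had only 0 to 7 counts in NRF2 and 1 to 17 in HcRed samples, and IFI44 only 0 to 14 and 4 to 28. With a sample left out their calls were lost in 6 and 2 fits.

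Of 12 AhR pathway genes, 3 of which are NFE2L2, NQO1 and ALDH3A1, 4 were higher (7.32% of all genes), the introduced NFE2L2 among them, and 6 lower (8.27% of all genes), with a median of -0.28. CYP1A1 was at 9.06, 8.74 and 8.99 in the 3 NRF2 samples with CSC and 8.81, 8.51 and 7.81 in the HcRed samples. With BaP the lowest NRF2 sample was at 8.83 and the highest HcRed sample at 8.35, and with NNK at 5.77, 5.70 and 6.13 against 5.33, 5.13 and 5.58. The samples overlapped with CSC and did not with BaP or NNK, and the gene rose by 0.71 (SE 0.08, adjusted p = 2.10e-11) over the 3 chemicals. AHRR, a repressor of the receptor, rose by 0.57 (adjusted p = 0.0257). CYP1B1 moved the other way and fell by 0.58 (SE 0.05, adjusted p = 1.40e-14). The receptor AHR was at 7.19, 7.42 and 7.55 in NRF2 and 7.58, 7.68 and 7.88 in HcRed samples, without overlap, and fell by 0.29 (adjusted p = 0.000513), its partner ARNT fell by 0.30 (adjusted p = 0.0268), the growth factor EREG fell by 1.24 (SE 0.12, adjusted p = 5.06e-13) and the protease inhibitor SERPINB2 fell by 1.03 (adjusted p = 0.00652).

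Few genes passed a test of differing NRF2 effects among the chemicals, which does not show that the other effects were the same. The test of any difference among the 3 chemicals called 21 genes (0.148%), and the contrast of a single chemical with the mean of the others called 6 genes with CSC (0.0422%), 9 with BaP (0.0633%) and 6 with NNK (0.0422%). In these single-chemical contrasts 1075, 1191 and 912 genes had an unadjusted limma-voom p under 0.05 for CSC, BaP and NNK. Many more genes passed with a single chemical and missed 0.05 with the others, namely 257 with CSC (1.81%), 706 with BaP (4.96%) and 148 with NNK (1.04%), but a miss does not show a difference. Genes that passed with a single chemical alone and also differed from the mean of the others numbered 3 (0.0211%) for CSC, namely NRG1, SCD and OIP5-AS1, 5 (0.0351%) for BaP, among them SNORA16A, SNORA81, TOP2A and LSM4, and 1 (0.00703%) for NNK, namely JUNB. The differences of SCD, TOP2A and LSM4 were not past 0.05 with edgeR or DESeq2, that of SNORA81 was not with DESeq2, and that of OIP5-AS1 was not with GC and length trends removed.

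NRG1, the ligand neuregulin 1, had 58, 84 and 122 counts in the NRF2 samples with CSC and 34, 20 and 33 in the HcRed samples. The log2 fold change was 2.31 with CSC (SE 0.23, adjusted p = 1.65e-12), 0.08 with BaP (adjusted p = 0.936) and -0.58 with NNK (adjusted p = 0.647), and the effect with CSC exceeded the mean of the others by 2.56 (adjusted p = 6.10e-05). HSD17B12, a 3-ketoacyl-CoA reductase of fatty acid elongation, was at 7.56, 7.70 and 7.60 in NRF2 and 6.96, 7.13 and 7.40 in HcRed samples with CSC, and at 6.90, 7.28 and 7.11 against 7.66, 7.64 and 7.29 with BaP. It rose by 0.49 with CSC (adjusted p = 0.00457) and fell by 0.52 with BaP (adjusted p = 0.00122). SCD, the stearoyl-CoA desaturase, differed by 0.24 from the mean of the others (adjusted p = 0.0112) and OIP5-AS1, a long noncoding RNA, by 0.56 (adjusted p = 0.0112), with log2 fold changes with CSC of 0.17 and 0.48. Without strand, reads of OIP5-AS1 and of a gene it overlaps cannot be told apart, and the strand used in counting is not given in the sources used here.

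CYP1B1 fell less with CSC than with the other chemicals, with log2 fold changes of -0.31 for CSC, -0.76 for BaP and -0.91 for NNK and a difference of 0.52 (adjusted p = 0.00265). The difference of FTL between BaP and the others was 0.41 (adjusted p = 0.0315), but it was not past 0.05 with edgeR, with DESeq2, with either other filter or with GC and length trends removed. SNORA16A, a small nucleolar RNA that lies within a host gene and may share its reads, was at 5.62, 5.30 and 5.01 in NRF2 and 6.64, 6.63 and 6.52 in HcRed samples with BaP and differed from the others by -1.58 (adjusted p = 0.000147).

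With NNK alone JUNB, a subunit of the AP-1 factor, was lower in NRF2 cells. It was at 6.09, 6.15 and 6.29 in NRF2 and 7.22, 7.14 and 7.02 in HcRed samples with NNK and fell by 0.97 (adjusted p = 1.33e-05), whereas with CSC and BaP it was at 0.06 and -0.08 and neither passed the test. AHNAK, a large scaffold protein gene with many reads, was at 12.32, 12.33 and 12.30 in NRF2 and 12.29, 12.39 and 12.32 in HcRed samples with NNK, but at 11.66, 11.74 and 11.71 against 12.16, 12.14 and 12.13 with BaP. Its log2 fold changes were -0.30 for CSC, -0.46 for BaP and -0.03 for NNK, and NNK differed from the mean of the others by 0.35 (adjusted p = 1.40e-11). FASN was at -0.69 with NNK, -0.36 with CSC and -0.18 with BaP, a difference that was not past 0.05 with edgeR or DESeq2. RNR2, a gene of ribosomal RNA, differed for BaP and for NNK, with 0.27, 0.07 and 0.56 for CSC, BaP and NNK. Beside it, RNR2 took 0.542 to 0.760% of the counts in NRF2 and 0.416 to 0.604% in HcRed samples, and the part of this ribosomal share in other results was not tested.

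**Figure D4:**
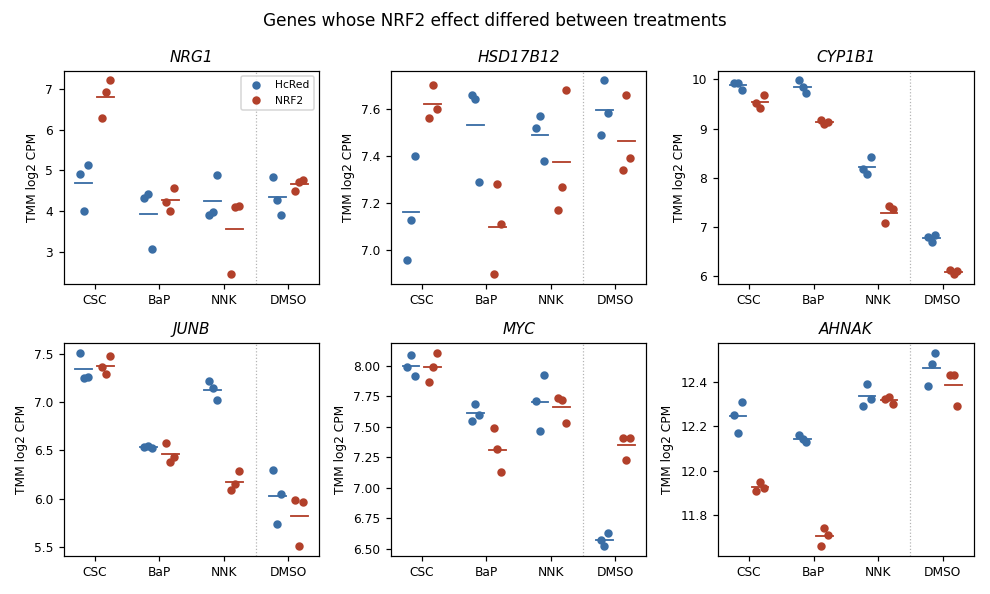
Levels of NRG1, HSD17B12, CYP1B1, JUNB, MYC and AHNAK (log2 CPM, vertical axis) in each NRF2 and HcRed sample with CSC, BaP, NNK and DMSO (horizontal axis). Points are samples and short lines their means. NRG1 stands apart in NRF2 cells with CSC, JUNB is lower in NRF2 than HcRed cells with NNK, MYC stands lower in HcRed cells with DMSO, and AHNAK is lower in NRF2 cells with BaP, at 11.66 to 11.74, than in HcRed cells, at 12.13 to 12.16.

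The NRF2 and HcRed samples with DMSO share none of the 18 libraries. They differed in 982 of 14219 genes (6.91%), and 165 of the 192 genes common to the 3 chemicals (85.9%) passed with DMSO in the same direction and none in the opposite one, while these 165 were 16.8% of the DMSO calls. The exceptions among the 24 leading genes were RPUSD4, with 1.21 (adjusted p = 5.46e-07) over the 3 chemicals and 0.77 (adjusted p = 0.101) with DMSO, and C3, with -0.88 (adjusted p = 0.0933) with DMSO. The effect over the 3 chemicals differed from that with DMSO in 17 genes (0.119%), with the lower value over the chemicals in each of them. No gene was higher by limma-voom, nor by edgeR or DESeq2, while with a replicate block in limma-voom 3 were higher and 25 lower, and 900 genes had an unadjusted p under 0.05 in either direction. Of the 17 genes 12 were called higher with DMSO.

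MYC, the growth-promoting factor, was at 7.41, 7.23 and 7.41 in NRF2 and 6.57, 6.52 and 6.63 in HcRed samples with DMSO and rose by 0.80 (adjusted p = 1.56e-06), but was at -0.11 (adjusted p = 0.292) over the 3 chemicals, a difference of -0.89 (adjusted p = 0.000101). In HcRed samples with CSC it was at 7.99, 8.09 and 7.92. The orphan receptor NR2F2 rose by 1.30 with DMSO and 0.56 over the chemicals, the epidermal factor TFAP2A by 0.71 with DMSO with 0.00 over the chemicals, and the calprotectin subunit S100A9 by 0.91 with 0.17. The phosphatase gene DUSP1 rose by 0.45 with DMSO and fell by 0.27 over the chemicals, and KRT14 did the same with 0.32 and -0.20. The fall of KRT14 was lost with DESeq2, without a filter on low counts and in 8 fits that left out a sample. The basal keratins KRT5 (0.36 with DMSO, 0.07 over the chemicals) and KRT17 (0.68 and 0.27) were also among the 17.

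Near 2 chromosome ends neighbouring genes differed in the same direction. This was seen after the values were known, and is given as a description with no test. In 376 windows of 5 Mb with at least 10 genes of mean count 10 or more (9944 genes in all), the medians of the log2 fold changes lay between -0.19 and 0.20 from the 5th to the 95th percentile, and 2 windows had a median above 0.5 in absolute value. At the end of the long arm of chromosome 20 (hg19 chr20:60000001-65000000) all 30 genes were lower in NRF2 cells, 29 of them called, with a median of -0.93. PSMA7, the proteasome subunit that fell by 0.99, is among them. The medians by chemical were -0.96 for CSC, -0.79 for BaP and -0.96 for NNK, and -0.85 for DMSO. Per sample, relative to the HcRed mean, the window stood between -0.99 and -0.80 in the 9 NRF2 samples and between -0.06 and 0.11 in the 9 HcRed samples.

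Near the end of the long arm of chromosome 11 (chr11:125000001-130000000) 16 of 17 genes were higher, 15 of them called, with a median of 0.72 and 0.66, 0.72 and 0.64 for CSC, BaP and NNK. The NRF2 samples stood between 0.60 and 0.88 and the HcRed samples between -0.18 and 0.07. RPUSD4, among the leading common rises, lies there (chr11:126071991-126081587). Other lines also differed from HcRed there. Against HcRed with the same chemicals the chromosome 20 window had a median of -0.92 in PIK3CA, -0.33 in FGFR1 and 0.24 in NRG1 cells, and the chromosome 11 window 0.71, 0.38 and -0.14. These windows held 24 of the 192 common genes and 44 of the 2219 calls, and without them 1027 genes were higher and 1148 lower. The windows were cut at fixed positions, and these counts leave out neighbours that moved the same way. Among genes with enough counts for the windows, those from GNAS (-0.78) to PPP1R3D (-1.04), just before the chromosome 20 window, were all called lower. Those from ST14 (0.90) to ACAD8 (0.94), just after the chromosome 11 window, were all called higher. Just before that window SIAE (1.10) and TMEM218 (0.88) were called higher and SLC37A2 (-0.008) was not called. Further along chromosome 11, the genes called from OSBP (-0.242) to C11orf54 (-0.413) were all lower except FTH1 (0.677) and TM7SF2 (0.504). Most genes of this stretch were not called. GSTP1, CCND1, DHCR7, TSKU and AHNAK, described above as lower, lie in it. In 4 further windows of chromosome 20, from 30 to 50 Mb, the medians were between 0.34 and 0.38. At chr7:25000001-30000000 the NRF2 samples stood between 0.10 and 0.48 and the HcRed samples between -0.09 and 0.13. At chr11:120000001-125000000 the NRF2 samples stood between 0.20 and 0.62 and the HcRed samples between -0.24 and 0.14. What the position has to do with these differences was not tested.

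**Figure D5:**
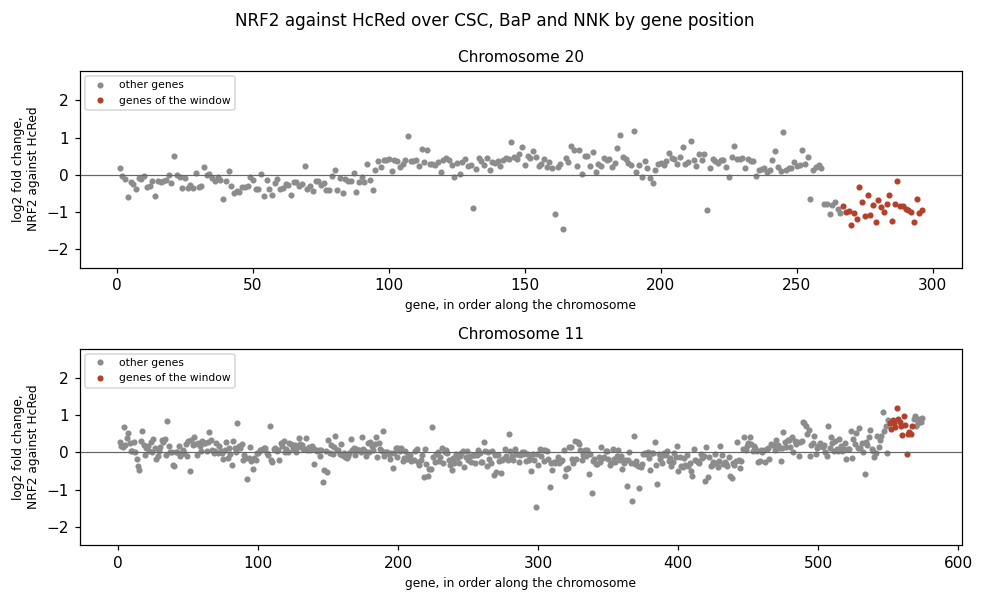
Log2 fold change of NRF2 against HcRed over the 3 chemicals (vertical axis) for genes of chromosomes 20 and 11 whose mean count reached 10, in gene order along the chromosome (horizontal axis). Red points are the 30 genes of the chromosome 20 window, all below 0 with a median of -0.93, and the 17 of the chromosome 11 window, 16 of them above 0 with a median of 0.72.

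TERT, named here after its values were seen and outside the rule for named genes, was at 9.62, 9.73 and 10.05 in NRF2 and 8.49, 8.93 and 9.29 in HcRed samples, with a log2 fold change of 0.93 (SE 0.04, adjusted p = 3.24e-28). AALE is an immortalized line, and reads of an introduced TERT and of the cells' own gene cannot be told apart in these counts. Its medians in the FGFR1, NRG1 and PIK3CA lines were 9.05, 7.86 and 10.55.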

How the data were processed

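SFL (sparse full-length) RNA sequencing reads of 75 bases were trimmed with cutadapt 1.12, checked with FastQC 0.11.5, aligned to hg19 with STAR 2.5.2b and assigned to RefSeq genes with featureCounts by the authors, who deposited raw counts per gene and sample. The strand setting and the treatment of reads that align to several places are not given in the sources used here. Samples were grouped by the genotype and chemical in the labels. Genes with a mean count above 1 over the 18 samples were kept. Counts were normalized by TMM (edgeR 4.0.16) and fitted with limma-voom (limma 3.58.1, R 4.3.3) in 2-sided tests, adjusted by Benjamini-Hochberg over all genes fitted and called under 0.05. The main comparison had genotype with chemical as covariate. A fit with 6 groups gave the contrast within each chemical, the difference of a chemical from the mean of the others and a joint test of any difference, and a fit with 8 groups set the chemicals against DMSO. A gene common to the chemicals passed in each contrast in the same direction. Levels are log2 CPM with a prior count of 2 over 59 samples of the 5 overexpression lines.

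Named genes were NFE2L2 and KEAP1, the 12 largest rises and 12 largest falls among common genes whose mean count reached 10 and whose samples did not overlap within any chemical, up to 6 genes per direction of each single-chemical contrast, up to 4 members per direction of each list by their test statistic, and up to 5 genes per direction of the contrast with DMSO. List members that were not called, genes of the fixed lists beyond these and the 2 chromosome windows were named as counts of their lists required. The members and the gene lists were chosen with earlier results of these data known. The results were recomputed with DESeq2 1.42.0, the quasi-likelihood test of edgeR, other filters, a replicate block, removal of GC and length trends, and samples left out. The fits were tested on simulated data. Counting error alone is covered by any depth stated. Results of some genes are not reported here.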

Additional observations from a re-analysis of the deposited data

Results flagged for a closer look

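The effect of NRF2 with a single chemical was tested against the mean effect with the others (limma-voom, Benjamini-Hochberg adjustment over all tested genes, 3 samples per genotype and chemical), and the genes below are among those that passed with a mean count of 10 or more. For CSC the differences in log2 fold change were 2.56 for NRG1 (adjusted p = 6.10e-05), 0.81 for HSD17B12 (0.00265), 0.56 for OIP5-AS1 (0.0112), 0.52 for CYP1B1 (0.00265), 0.24 for SCD (0.0112) and -0.23 for EEF2, a translation elongation factor (0.0375). For BaP they were 0.52 for LSM4 (adjusted p = 0.0461), 0.41 for FTL (0.0315), -1.58 for SNORA16A (0.000147), -1.21 for SNORA81 (0.0250), -0.71 for HSD17B12 (0.0209), -0.35 for TOP2A (0.0227), -0.35 for RNR2 (1.21e-06) and -0.30 for AHNAK (6.19e-09). For NNK they were 1.46 for SNORA81 (adjusted p = 0.0305), 0.43 for ANXA2 (0.0121), 0.39 for RNR2 (1.18e-07), 0.35 for AHNAK (1.40e-11), -0.96 for JUNB (0.00638) and -0.42 for FASN (0.0178). Among these, the differences of NRG1, HSD17B12 and CYP1B1 for CSC, SNORA16A for BaP, and AHNAK and JUNB for NNK stayed past 0.05 under every other tool, filter and trend removal tried. Each of the others was lost under 1 to 6 of them, and with a sample left out those of CYP1B1 and JUNB were lost in 1 and 2 fits.

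The effect over the 3 chemicals was tested against that with DMSO in the same way. The largest differences were -0.89 for MYC (adjusted p = 0.000101), -0.72 for NR2F2 (0.0434), -0.70 for TFAP2A (0.0256), -0.70 for DUSP1 (0.0183) and -0.69 for S100A9 (0.0183). That of MYC stayed past 0.05 under every alternative, while those of the other 4 genes were lost under 1 to 3. Groups of 3 samples were too small for a test of single outlying samples.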

How the results depend on the processing

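Over 28 fits the log2 fold change of NFE2L2 lay between 2.65 and 2.70. None of the 130 values of named genes reversed. Under the alternatives 1083 of 1155 values, and with a sample left out 2211 of 2370, had the same call as in the main fit. KEAP1, which was not called in the main fit, is counted among these. All values of the 24 leading common genes stayed past 0.05. They were chosen as large effects without overlap in the same samples, so this is no separate support. Of the calls over the 3 chemicals, those of AHRR, CENPF, CYP4F11, EPCAM, KRT13, KRT14, MAFG, MKI67 and TWIST1 were lost under at least 1 alternative. DESeq2 with its size factors gave 322 genes with CSC, 462 with BaP, 307 with DMSO, 6 that differed among the chemicals, 3 particular to BaP, 2 particular to NNK and 5 for the chemicals against DMSO. Without a filter on low counts 3 genes were particular to BaP and 9 differed from DMSO, and with GC and length trends removed 11 did. With both shallowest libraries left out, a choice made after seeing the data, 21 genes were particular to BaP. In 27 other fits the window medians were -0.96 to -0.90 on chromosome 20 and 0.69 to 0.76 on chromosome 11.

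With a sample left out in turn, 1880 to 2265 genes were called over the 3 chemicals and 148 to 197 were common. Counts were 365 to 675 with CSC (outside 1.5 times the full count without NRF2 replicate 1 or 3), 630 to 1251 with BaP (without replicate 1 or 2 of either genotype), 307 to 511 with NNK (without HcRed replicate 1 or NRF2 replicate 2) and 598 to 1001 with DMSO (without replicate 1 of either genotype). Between 10 and 35 genes differed among the chemicals (most changed without HcRed BaP 2 or 3, HcRed NNK 1 or NRF2 CSC 3), 2 to 10 were particular to CSC (without HcRed 3 or NRF2 3), 5 to 24 to BaP (without any HcRed BaP sample, NRF2 BaP 1 or 3, or NRF2 NNK 3), 3 to 9 to NNK (without HcRed 1 or NRF2 2), and 9 to 25 differed from DMSO (without NRF2 DMSO 1). Without NRF2 CSC 3 the differences of CYP1B1, OIP5-AS1, SCD and EEF2 for CSC were lost.

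Replicate numbers recur in each group, but nothing says that a number marks a shared culture or day. Same-numbered NRF2 and HcRed samples of a chemical had correlations of -0.0346 to 0.0774 in their deviations, none above 0.1 in 9 pairs, while 15 of 18 samples correlated best with their own number. With the replicate block 2288 genes were called over the 3 chemicals, 230 were common, 53 differed among the chemicals, 27, 32 and 15 were particular to CSC, BaP and NNK, and 28 differed from DMSO, 3 of them higher with the chemicals.

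At 432015 to 1494564 counted reads, genes of few counts such as HMOX1 and SLC38A5 are imprecise, and a chemical's contrast rests on 3 against 3 samples. Genotype and line cannot be told apart, since NRF2 is represented by the samples of its line alone.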

Other observations

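Of the 21 genes that differed among the chemicals 2 were common to all 3, and 2 of the 192 common genes differed from their effect with DMSO. The first and second principal components of the 18 samples held 18.9% and 11.7% of the variance. The NRF2 and HcRed samples separated along the first, and the NNK samples stood apart from the others along the second.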
